A study of Homo sapiens with 16 samples.

Results

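The data are gene counts from 12 of the 16 libraries of a breast cancer RNA-seq series. They are the libraries of HCC1806 and BT474, the 2 cell lines that were grown both as spheroids and as flat cultures. All libraries of these 2 lines were taken, and each gene was then placed by how its spheroid libraries lay against the monolayer libraries of its own line. HCC1806 is an established line of basal, triple-negative type, and BT474 is an established luminal line with extra copies of ERBB2. These subtypes are general knowledge and no label gives them. Each line has 2 libraries of spheroids at day 10, 2 libraries of spheroids at day 20 and 2 libraries of monolayers, 6 in all. No drug or gene change is named for any group. HCC1806 was kept in RPMI and BT474 in DMEM, each with 10% serum, so that line and medium cannot be told apart in any line difference below. The treatment label calls every sample a monolayer, and the groups were therefore read from the sample titles. Nothing in the labels says that the replicates are separate cultures, and the p-values measure only the spread between these libraries.

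Cells in a monolayer are anchored to plastic, spread and fed evenly. In a spheroid they are held by one another and by the matrix they lay down, with a rim close to the medium and a core that receives less oxygen and nutrient. Cell spreading is known to keep the coactivators YAP and TAZ in the nucleus, contact and starvation slow the cell cycle and the building of ribosomes, and low oxygen stabilises the HIF transcription factors. Spheroid culture is also used to enrich for cells with breast stem cell markers such as CD44. In whole-culture RNA fewer cells of a type and less RNA per cell cannot be told apart. A gene that moves alike in a basal and a luminal line can be separated in these data from one that moves in a single line or in opposite directions.

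Library totals ran from 32390615 to 72489002 counts. The HCC1806 monolayer libraries stood far apart from each other. The log2 ratio between them had an SD of 1.89 over genes, against 0.483 to 0.624 for the other 5 replicate pairs. The mitochondrial share of counts was 1.09% to 2.70% in HCC1806 spheroids, against 17.8% in HCC1806 monolayer replicate 1 and 0.768% in replicate 2. It was 3.89% to 6.30% in BT474 spheroids and 2.31% to 2.43% in BT474 monolayers. HCC1806 values without each of these monolayer libraries are therefore given beside the main results, where the remaining monolayer library is assumed to vary like the other groups. Line markers went with the labels, apart from GATA3. The basal keratin KRT5 stood at 2320 to 5130 CPM (read counts scaled to a common library size) in HCC1806 spheroids and 1560 to 3000 in HCC1806 monolayers, and at no more than 0.191 in any BT474 library. ERBB2 stood at 116 to 222 CPM over the HCC1806 libraries, and at 5930 to 6490 CPM in BT474 spheroids and 6600 to 7530 in BT474 monolayers. PGR, the progesterone receptor, had at most 0.0527 CPM in HCC1806. GATA3, a luminal marker set in advance as high in BT474, stood at 190 to 242 CPM in HCC1806 spheroids against 43.7 to 58.8 in BT474 spheroids. In monolayers GATA3 stood at 58.3 to 208 CPM in HCC1806 and 173 to 193 in BT474.

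Markers of other cell types were low. Of 12 leukocyte markers 5 passed the filter on low counts, CD2 had 0 counts in all 12 libraries, and the pan-leukocyte gene PTPRC had 4 counts over the HCC1806 spheroids, 4 over the HCC1806 monolayers and 0 over BT474. The summed level of the tested leukocyte markers was 4.4 to 5.65 CPM in HCC1806 spheroids against 1.26 to 9.77 in HCC1806 monolayers, and 16.1 to 25.4 CPM in BT474 spheroids against 0.451 to 0.838 in BT474 monolayers. The BT474 difference was mostly LYZ, the lysozyme gene, which epithelia also express (15.6, 18.9, 25.1 and 24.5 CPM in BT474 spheroids, against 0.359 and 0.285 in BT474 monolayers). Of 11 fibroblast markers 8 were tested, with a sum of 70.4 to 101 CPM in HCC1806 spheroids against 23.6 to 52.4 in monolayers, and 79.4 to 102 CPM in BT474 spheroids against 74.4 to 75.2 in monolayers. COL1A1 made up most of the counts in each group. For the other markers in HCC1806, raw counts over the 4 spheroid libraries were set against those over the 2 monolayers, without scaling. They were 564 against 5 for COL3A1, 93 against 4 for DCN, 64 against 3 for FAP and 78 against 20 for PDGFRB. ACTA2 had 216 against 30 and LUM 397 against 101. THY1 went the other way, with 131 against 197, and POSTN had 6 against 6. In BT474 DCN, FAP and PDGFRB had 0 counts. Of 10 endothelial markers 6 were tested. Their sum was 5.07 to 7.97 CPM in HCC1806 spheroids against 5.76 to 9.01 in monolayers, and 14.4 to 16.6 CPM in BT474 spheroids against 14.1 to 16.2 in monolayers.

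The first question was how many genes changed with culture format in each line. In a single fit of the 12 libraries, 20929 genes were tested with edgeR's quasi-likelihood test, and a gene was called at a Benjamini-Hochberg adjusted p under 0.05. In HCC1806 1677 genes (8.01%) were called higher in spheroids and 1685 (8.05%) lower. In BT474 59 genes (0.282%) were called higher and 35 (0.167%) lower. The effect differed between lines, tested as the interaction of line and format, for 610 genes (2.91%) with the more positive effect in HCC1806 and for 419 (2.0%) with the more positive effect in BT474. With library totals in place of TMM factors the HCC1806 calls split into 2359 higher and 799 lower, and the interaction calls into 904 and 159. That scaling moved the median HCC1806 fold change of all genes by 0.27 on the log2 scale.

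The spread of the HCC1806 monolayer pair entered every one of these tests. When each line was fitted alone, BT474 gave 1840 genes called higher (10.5% of 17447 tested) and 1819 lower (10.4%), whereas HCC1806 gave 0 calls among 18869 genes, of which 4000 had an unadjusted p under 0.05. DESeq2 on all 12 libraries called 2619 genes higher and 3093 lower in HCC1806 spheroids. Few calls in BT474 in the fit of 12 libraries therefore do not show that BT474 changed less. The HCC1806 and interaction calls of that fit likewise rest on a spread shared with groups that varied less. A voom fit with a separate weight for each group called 0 genes in HCC1806, 2139 in BT474 and 1 for the interaction. The p-values given below for HCC1806 and for the interaction may therefore be too small.

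Genes were next classed without a test, by whether every spheroid library of a line lay on one side of both its monolayer libraries. All 4 HCC1806 spheroid libraries lay above both monolayers for 4302 genes (20.6%) and below both for 2841 (13.6%). In BT474 they lay above for 3810 genes (18.2%) and below for 3531 (16.9%). Over both lines 875 genes (4.18%) were higher in both, 526 (2.51%) lower in both, 695 (3.32%) higher in HCC1806 and lower in BT474, and 430 (2.05%) lower in HCC1806 and higher in BT474. Among the genes above in HCC1806, 20.3% were also above in BT474 and 16.2% were below, against 18.2% and 16.9% of all genes. Among the genes below in HCC1806, 18.5% were below in BT474 and 15.1% above. Read from the other line, 23.0% of the genes above in BT474 were above in HCC1806 and 14.9% of those below in BT474 were below in HCC1806. The shares on the same side thus lay near the background of 20.6%, 13.6%, 18.2% and 16.9%, and the opposite classes of 695 and 430 genes were not far smaller than the shared classes of 875 and 526.

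**Figure D1:**
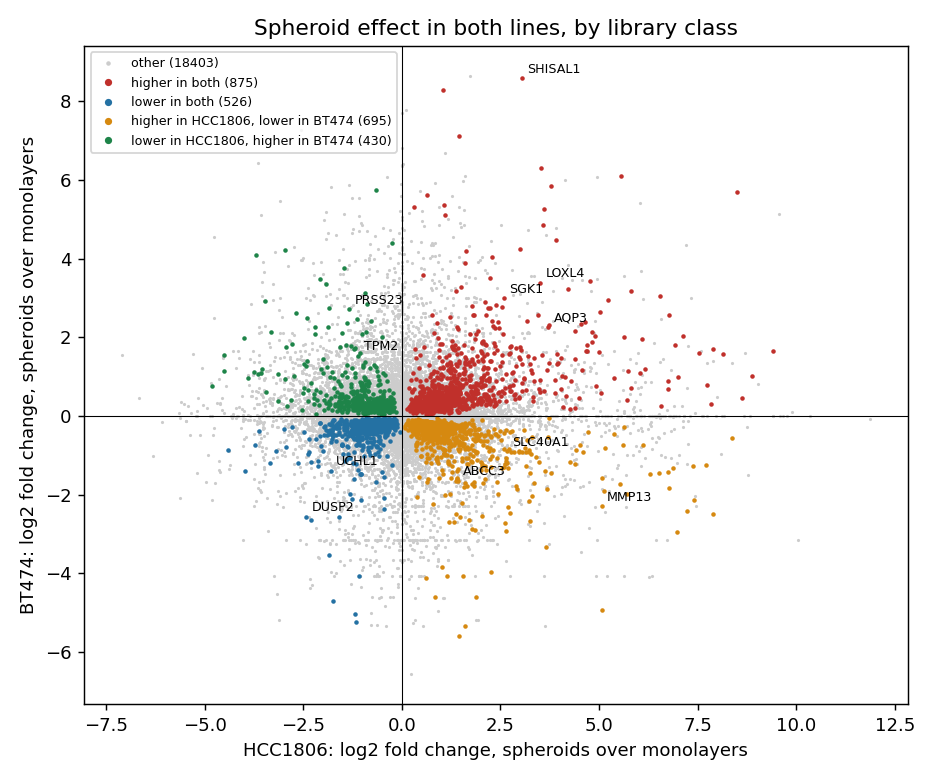
Each point is 1 of 20929 genes, with the log2 fold change of spheroids over monolayers in HCC1806 on the x axis and in BT474 on the y axis. Colours mark the library classes, and they fill all 4 quadrants, with 875, 526, 695 and 430 genes.

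Calls in both lines were rare and gave 39 genes. Of these 19 (0.0908% of genes tested) were higher in both, 6 (0.0287%) lower in both, 9 (0.043%) higher in HCC1806 and lower in BT474, and 5 (0.0239%) the reverse. Of the 59 genes called higher in BT474, 32.2% were called higher in HCC1806 and 8.47% lower. Of the 35 called lower in BT474, 17.1% were called lower in HCC1806 and 25.7% higher. Of all genes tested 8.01% were called higher and 8.05% lower in HCC1806. These counts rest on the spread among few libraries. Without HCC1806 monolayer replicate 1 the fit called 791 genes higher and 729 lower in both lines, and without replicate 2 it called 629 and 315. Without any 1 of the other 10 libraries it called 0 to 7 genes higher in both and 0 lower in both. The values of these genes follow, with the CPM of day 10 replicates 1 and 2 and day 20 replicates 1 and 2 in that order for spheroids, and of replicates 1 and 2 for monolayers. Changes are log2 fold changes of spheroids over monolayers ± SE, and p-values come from edgeR and are adjusted over all genes.

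Genes higher in the spheroids of both lines included an enzyme of matrix crosslinking, a hormone-regulated kinase, a water channel and several epidermal and luminal genes. LOXL4 (ENSG00000138131, chromosome 10, 98247690 to 98268250), a lysyl oxidase that crosslinks collagen and elastin, had 2.85, 2.84, 13.9 and 14.6 CPM in HCC1806 spheroids against 0.961 and 0.22 in monolayers, and 207, 244, 182 and 218 CPM in BT474 spheroids against 18.1 and 22.5 in monolayers. It rose by 3.5 ± 0.47 in HCC1806 (edgeR adjusted p = 0.00291) and by 3.39 ± 0.42 in BT474 (edgeR adjusted p = 0.0187). Its HCC1806 change was 4.76 when monolayer replicate 1 was left out and 2.74 when replicate 2 was. The line difference of 0.11 ± 0.53 was not called (edgeR adjusted p = 1.0), and in HCC1806 the day 20 libraries lay above the day 10 libraries. SGK1 (ENSG00000118515, chromosome 6, 134169246 to 134318112), the serum and glucocorticoid-regulated kinase, had 79.1, 86.7, 80.9 and 67.1 CPM in HCC1806 spheroids against 11 and 15 in monolayers, and 16.4, 17.2, 22.6 and 23.5 CPM in BT474 spheroids against 1.99 and 2.94 in monolayers. Its rise was 2.59 ± 0.23 in HCC1806 (edgeR adjusted p = 0.000689) and 3.0 ± 0.24 in BT474 (edgeR adjusted p = 0.00788). The line difference of -0.41 ± 0.29 was not called (edgeR adjusted p = 0.462). AQP3 (ENSG00000165272, chromosome 9, 33441154 to 33447633), a channel for water and glycerol, had 263, 243, 334 and 312 CPM in HCC1806 spheroids against 24.2 and 19.4 in monolayers, and 3.18, 4.39, 6.59 and 6.5 CPM in BT474 spheroids against 1.15 and 0.926 in monolayers. It rose in both lines and more in HCC1806, with an interaction of 1.45 ± 0.26 (edgeR adjusted p = 0.0219). FAM84A showed the same order, rising by 2.96 ± 0.16 in HCC1806 and 1.51 ± 0.14 in BT474 with an interaction of 1.45 ± 0.19 (edgeR adjusted p = 0.0082).

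MAT1A, the liver-type enzyme that makes S-adenosylmethionine, had 0.706, 0.922, 1.48 and 1.79 CPM in HCC1806 spheroids against 0.16 and 0.0275 in monolayers. In BT474 it had 94.7, 103, 79 and 82.7 CPM in spheroids against 11.7 and 24.5 in monolayers, a rise of 2.3 ± 0.38 (edgeR adjusted p = 0.0498). Without HCC1806 monolayer replicate 2 its HCC1806 change was 2.84 and was not called (edgeR adjusted p = 0.0733), nor was that of SLC6A14 (0.81, edgeR adjusted p = 0.119). PELI1, a Pellino ubiquitin ligase, rose by 2.07 ± 0.25 in HCC1806 and 1.9 ± 0.24 in BT474. The adhesion receptor ADGRF4 rose by 2.04 ± 0.19 and 1.89 ± 0.2, RGL1, an exchange factor for Ral GTPases, by 2.46 ± 0.33 and 2.24 ± 0.33, and the epidermal lipid transporter ABCA12 by 2.04 ± 0.25 and 1.6 ± 0.25, each with HCC1806 named first. The interactions of these 4 genes ran from 0.15 to 0.45 and none was called. SHISAL1 had 23.4, 21.9, 26.9 and 21.3 CPM in HCC1806 spheroids against 1.72 and 3.93 in monolayers, and its HCC1806 change was 2.49 when monolayer replicate 1 was left out and 3.78 when replicate 2 was. In BT474 it had 239 counts over the spheroids and 0 over the monolayers, which is at least 35.8-fold higher when the group at 0 is set to 3 counts. FOSL2, a subunit of the AP-1 transcription factor, had 646, 616, 661 and 639 CPM in HCC1806 spheroids against 257 and 268 in monolayers, and 283, 308, 306 and 323 CPM in BT474 spheroids against 103 and 162 in monolayers.

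The other 8 genes called higher in both lines fall outside the rule for named genes and are given here so that all 19 are accounted for. ELF5 (ENSG00000135374, chromosome 11, 34478793 to 34513805), a transcription factor of luminal progenitors and the milk-secreting lineage in mouse mammary gland, had 3.81, 3.56, 4.61 and 3.69 CPM in HCC1806 spheroids against 0.16 and 0.165 in monolayers, and 92.7, 92.4, 87.5 and 96.5 CPM in BT474 spheroids against 34.6 and 46.8 in monolayers. It rose by 4.56 ± 0.26 in HCC1806 (edgeR adjusted p = 0.000109) and by 1.18 ± 0.18 in BT474 (edgeR adjusted p = 0.0378), and the interaction was called at 3.38 ± 0.3 (edgeR adjusted p = 0.00254). The HCC1806 monolayers lay close in this gene, and leaving out replicate 1 or 2 gave changes of 4.46 and 4.61. GLUL, glutamine synthetase, had 982, 988, 626 and 600 CPM in HCC1806 spheroids against 375 and 258 in monolayers, and 197, 202, 216 and 214 CPM in BT474 spheroids against 85.1 and 94.6 in monolayers. PPARA, a nuclear receptor that drives fatty acid oxidation, rose by 1.3 ± 0.2 in HCC1806 and 1.71 ± 0.21 in BT474. KYNU, kynureninase of tryptophan breakdown, rose by 1.35 ± 0.2 and 1.81 ± 0.21, and the amino acid transporter SLC6A14 by 1.11 ± 0.26 and 1.51 ± 0.24. ZNF516, RAPGEFL1 and EFHC2 complete the class, with HCC1806 changes of 1.02, 0.97 and 1.83 and BT474 changes of 1.83, 1.22 and 2.58. Apart from ELF5 none of the 8 had its interaction called. When the 19 genes were refitted without HCC1806 monolayer replicate 1 or 2, the HCC1806 changes kept their sign in each fit. Where all spheroid libraries lay above both monolayers, that sign was nearly fixed in advance and adds no support.

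**Figure D2:**
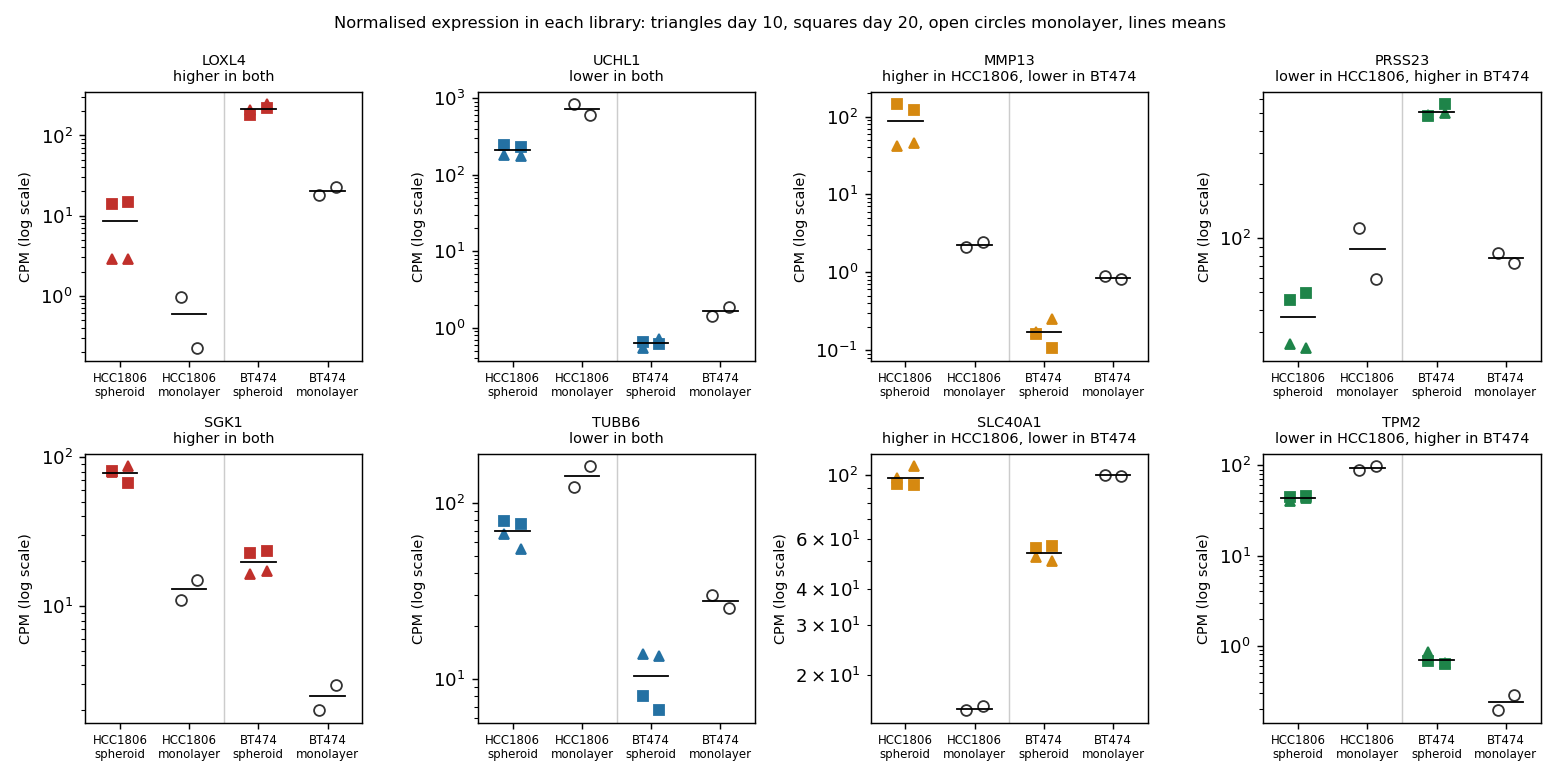
CPM on a log axis for 2 genes of each class, in HCC1806 spheroids, HCC1806 monolayers, BT474 spheroids and BT474 monolayers. Triangles are day 10, squares day 20, open circles monolayers and lines means, and in each panel no spheroid library overlaps the monolayers of its line.

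Matrix genes included several that were higher in both lines. Of 26 tested collagen, laminin and other matrix genes 7 (26.9%) were higher in both lines by libraries, against 4.18% of all genes, and 1 was higher in HCC1806 and lower in BT474. The 7 were COL1A1, COL3A1, COL4A5, COL16A1, COL18A1, LAMB2 and LAMB3. In BT474 COL3A1 had only 14 counts over the spheroids and 1 over the monolayers. The ratio after scaling was 6.28 (95% interval from counting error alone, 0.956 to 266), so that its side there is uncertain. The list's median change was 0.63 in HCC1806 and 0.25 in BT474, against 0.0 for all genes in each line, and without each HCC1806 monolayer it was 0.27 and 1.82. In BT474 12 members lay above the monolayers and 5 below, against 18.2% and 16.9% of all genes. The BT474-alone fit called 8 higher and 4 lower, against 10.5% and 10.4%. Summed levels were 1080 to 1230 CPM in BT474 spheroids against 1220 in monolayers, and 6460 to 7740 in HCC1806 spheroids against 3610 to 8460 in monolayers. LAMB2, a laminin chain of basement membranes, had 139, 134, 147 and 142 CPM in HCC1806 spheroids against 68.9 and 66.6 in monolayers, and 171, 171, 138 and 130 CPM in BT474 spheroids against 124 and 108 in monolayers. It rose by 1.05 ± 0.13 in HCC1806 (edgeR adjusted p = 0.00203) and was not called in BT474 in the 12-library fit (0.38 ± 0.13, edgeR adjusted p = 0.391), while the BT474-alone fit called it (0.38, edgeR adjusted p = 0.00402). COL18A1, the source of endostatin, had 52.7, 52.7, 59.4 and 66.9 CPM in HCC1806 spheroids against 16.8 and 29.8 in monolayers, and 20.3, 18.9, 23 and 21.3 CPM in BT474 spheroids against 15.5 and 11.8 in monolayers. LAMA5, a laminin alpha chain, was the member with opposite sides, at 877, 791, 991 and 921 CPM in HCC1806 spheroids against 777 and 754 in monolayers, and 108, 122, 104 and 94.2 CPM in BT474 spheroids against 166 and 137 in monolayers. COL1A1 and COL3A1 also stand on the fibroblast marker list, whose levels are given above, and their part in the matrix count was not tested.

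Of 27 tested lysosome and autophagy genes 5 (18.5%) were higher in both lines, against 4.18% of all genes, 1 was lower in HCC1806 and higher in BT474, and 0 were lower in both. CTSB and CTSH, lysosomal cathepsins, and PSAP, the precursor of the saposins, belonged to the 5. The autophagy kinase ULK1 had 140, 144, 162 and 140 CPM in HCC1806 spheroids against 74 and 60.8 in monolayers, and 268, 290, 263 and 267 CPM in BT474 spheroids against 172 and 191 in monolayers. It rose by 1.12 ± 0.15 in HCC1806 (edgeR adjusted p = 0.00292), and by 0.58 in the BT474-alone fit (edgeR adjusted p = 0.000214). The proton pump subunit ATP6V0D1 was the weakest of the 5, with changes of 0.38 ± 0.16 in HCC1806 and 0.14 ± 0.16 in BT474, neither called. GLA, alpha-galactosidase, was the exception, at 11, 11.8, 13.6 and 12 CPM in HCC1806 spheroids against 19.2 and 29.3 in monolayers, and 17.5, 16.8, 17.2 and 16.5 CPM in BT474 spheroids against 15.1 and 13.1 in monolayers. The list median was 0.38 in HCC1806 and 0.21 in BT474, and 0.59 and 0.18 in HCC1806 without each monolayer library.

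Genes of cell cycle exit divided between the classes. Of 19 tested members 5 (26.3%) were higher in both lines, 4 (21.1%) were higher in HCC1806 and lower in BT474, against 4.18% and 3.32% of all genes, and 1 was lower in HCC1806 and higher in BT474. BTG2, an antiproliferative gene of the p53 response, had 209, 219, 177 and 188 CPM in HCC1806 spheroids against 104 and 27.5 in monolayers, and 135, 129, 130 and 159 CPM in BT474 spheroids against 67.2 and 50.5 in monolayers. FOXO3, SESN1, SESN3 and GAS1 completed the 5. The cyclin-dependent kinase inhibitor genes CDKN1A and CDKN1B lay on opposite sides in the 2 lines. CDKN1A, which encodes p21, had 127, 113, 169 and 131 CPM in HCC1806 spheroids against 99.1 and 46.7 in monolayers, and 16.8, 20.4, 16.9 and 13.3 CPM in BT474 spheroids against 31.4 and 37 in monolayers. CDKN1B, which encodes p27, had 102, 102, 78.6 and 93.4 CPM in HCC1806 spheroids against 57.9 and 56.2 in monolayers, and 96.7, 93.2, 100 and 114 CPM in BT474 spheroids against 129 and 130 in monolayers. Both interactions were called, at 1.91 ± 0.41 for CDKN1A (edgeR adjusted p = 0.0381) and 1.07 ± 0.19 for CDKN1B (edgeR adjusted p = 0.0191). The growth arrest gene GADD45A ran the other way, at 24.8, 19.8, 26.3 and 25.6 CPM in HCC1806 spheroids against 92.1 and 51.6 in monolayers, and 21, 26, 26.1 and 30.9 CPM in BT474 spheroids against 13.9 and 15.5 in monolayers, with an interaction of -2.4 ± 0.35 (edgeR adjusted p = 0.0118).

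Breast stem cell and pluripotency markers were likewise mixed. Of 22 tested members 4 (18.2%) were higher in both lines and 3 (13.6%) higher in HCC1806 and lower in BT474, against 4.18% and 3.32% of all genes. The list's median was 0.66 in HCC1806 and -0.23 in BT474, and 0.25 and 0.72 in HCC1806 without each monolayer library. The BT474-alone fit called 4 higher and 5 lower, against 10.5% and 10.4% of all genes. CD44, the hyaluronan receptor used to sort breast stem-like cells, had 1370, 1290, 1890 and 1680 CPM in HCC1806 spheroids against 387 and 1200 in monolayers, and 43.2, 50.9, 48.9 and 52.9 CPM in BT474 spheroids against 13.6 and 13.9 in monolayers. Leaving out monolayer replicate 1 gave an HCC1806 change of 0.28 and leaving out replicate 2 one of 2.02, and the BT474-alone fit gave 1.83 (edgeR adjusted p = 1.51e-06). CD24, whose low level is part of the same stem cell sort, was also on the higher side, with 271, 280, 340 and 369 CPM in HCC1806 spheroids against 240 and 156 in monolayers, and 1900, 1830, 1930 and 1970 CPM in BT474 spheroids against 1390 and 1760 in monolayers. SOX2, a pluripotency factor, had 25.4, 26.8, 18.5 and 28 CPM in HCC1806 spheroids against 0.881 and 14.6 in monolayers, and 6.25, 6.59, 3.87 and 4.53 CPM in BT474 spheroids against 2.47 and 1.66 in monolayers. In the 12-library fit none of these 3 was called in either line. The Notch ligand DLL1 was the other member higher in both. The Notch receptor NOTCH1 was opposite, at 296, 240, 284 and 296 CPM in HCC1806 spheroids against 83.6 and 120 in monolayers, and 22.7, 28.6, 25.3 and 23.2 CPM in BT474 spheroids against 47.3 and 45.5 in monolayers, with an interaction of 2.35 ± 0.27 (edgeR adjusted p = 0.00559). The ligand JAG1 and the Polycomb gene BMI1 were opposite in the same orientation, with interactions of 1.9 ± 0.59 and 0.92 ± 0.25 that were not called. ALDH1A1 and ALDH1A3, the aldehyde dehydrogenases behind the ALDH activity assay, were in no class.

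**Figure D3:**
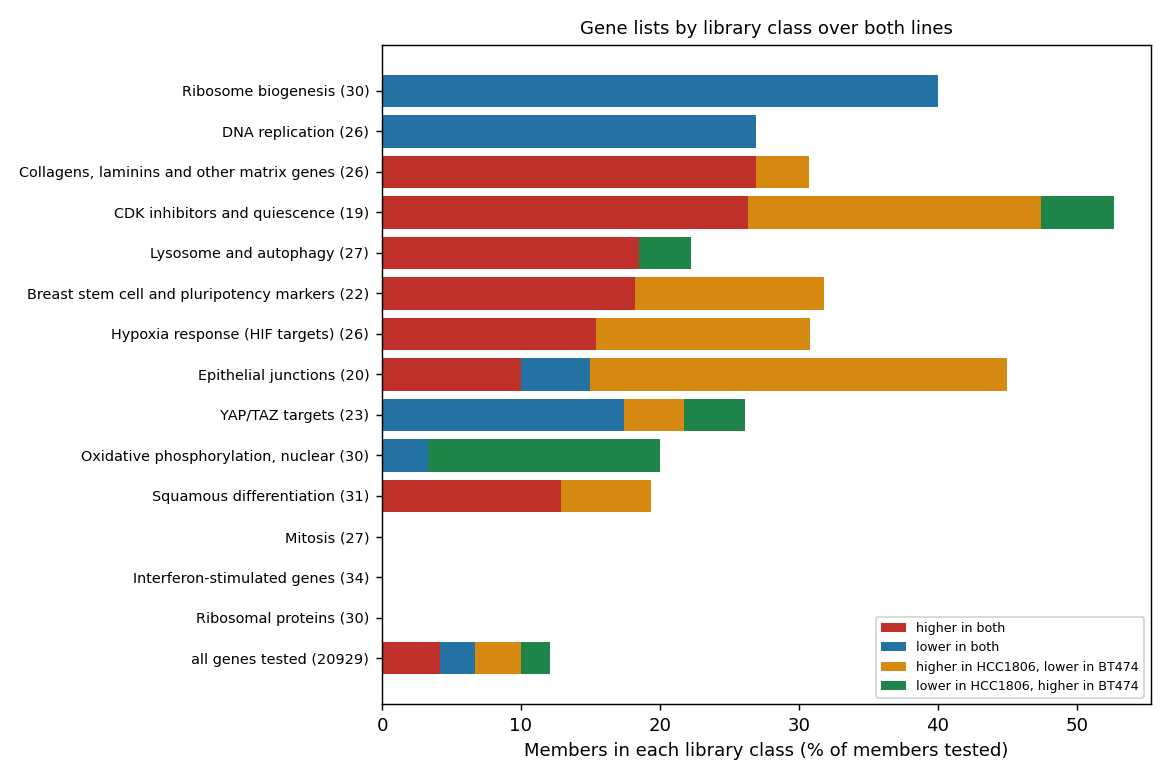
Share of the tested members of 14 gene lists in each library class, with the number tested in brackets and all 20929 genes as the lowest bar. Ribosome biogenesis (40.0%) and DNA replication (26.9%) had members in the class lower in both alone, while mitosis, interferon-stimulated and ribosomal protein genes had none in any class.

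The 6 genes called lower in the spheroids of both lines were UCHL1, TUBB6, KIF1C, DOK7, SMYD2 and DUSP2. UCHL1 (ENSG00000154277, chromosome 4, 41256413 to 41268455), a deubiquitinating enzyme abundant in neurons, had 180, 178, 247 and 230 CPM in HCC1806 spheroids against 832 and 609 in monolayers, and 0.537, 0.706, 0.645 and 0.606 CPM in BT474 spheroids against 1.41 and 1.88 in monolayers. It fell by 1.8 ± 0.18 in HCC1806 (edgeR adjusted p = 0.000934) and by 1.39 ± 0.2 in BT474 (edgeR adjusted p = 0.0346). TUBB6 (ENSG00000176014, chromosome 18, 12307669 to 12344320), a beta tubulin, had 66.8, 54.7, 79.1 and 76.2 CPM in HCC1806 spheroids against 124 and 162 in monolayers, and 13.9, 13.5, 8.04 and 6.66 CPM in BT474 spheroids against 30.2 and 25.5 in monolayers. It was the only 1 of 11 tested tubulin genes in a class over both lines. KIF1C (ENSG00000129250, chromosome 17, 4997948 to 5028401), a kinesin motor that moves along microtubules, had 257, 239, 249 and 255 CPM in HCC1806 spheroids against 508 and 488 in monolayers, and 241, 246, 200 and 191 CPM in BT474 spheroids against 378 and 370 in monolayers. The HCC1806 monolayers were close to each other in this gene, and its HCC1806 change of -0.99 ± 0.12 was -1.05 and -1.0 without each of them. DUSP2, a phosphatase that switches off MAP kinases, had 1.55, 2.05, 2.21 and 2.1 CPM in HCC1806 spheroids against 15.7 and 5.6 in monolayers, and 1.47, 1.6, 1.13 and 1.21 CPM in BT474 spheroids against 7.13 and 8.62 in monolayers. Its HCC1806 change was -1.59 when monolayer replicate 1 was left out and -2.97 when replicate 2 was. DOK7, an adaptor of the muscle receptor kinase MuSK, changed by -1.04 ± 0.22 in HCC1806 and -1.47 ± 0.22 in BT474. SMYD2, a lysine methyltransferase, changed by -0.55 ± 0.12 and -0.83 ± 0.12. None of the 6 interactions was called, and they ran from -0.42 to 0.44.

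Ribosome biogenesis had the largest share of members lower in both lines among the 41 lists. Of its 30 tested genes 12 (40.0%) were lower in both by libraries, against 2.51% of all genes, and 0 were in any other class. The 12-library fit called 16 members lower and 0 higher in HCC1806 and none in BT474, the BT474-alone fit called 6 lower and 0 higher, and 7 interactions were called, all more negative in HCC1806. Of all genes tested 8.05% were called lower in HCC1806, 10.4% in the BT474-alone fit, and 2.0% had an interaction more negative in HCC1806. The median change was -0.79 in HCC1806 and -0.18 in BT474, and -1.15 and -0.42 in HCC1806 without each monolayer library. With library totals in place of TMM factors 7 of the 30 were lower in both. FBL (ENSG00000105202, chromosome 19, 39834458 to 39846414), fibrillarin, which methylates ribosomal RNA, had 186, 168, 152 and 137 CPM in HCC1806 spheroids against 512 and 420 in monolayers, and 150, 161, 163 and 174 CPM in BT474 spheroids against 177 and 179 in monolayers. It fell by 1.54 ± 0.14 in HCC1806 (edgeR adjusted p = 0.000673), and its BT474 change of -0.14 ± 0.14 was not called in either fit. PES1 (ENSG00000100029, chromosome 22, 30576625 to 30607083), a scaffold of large ribosomal subunit assembly, had 102, 94.4, 95.9 and 102 CPM in HCC1806 spheroids against 199 and 219 in monolayers, and 106, 114, 109 and 105 CPM in BT474 spheroids against 129 and 119 in monolayers. RRP9, which binds the U3 small nucleolar RNA, and RRP12, which serves export of the subunits, fell in HCC1806, with changes of -1.33 ± 0.18 and -0.67 ± 0.14, and in the BT474-alone fit, with changes of -0.43 (edgeR adjusted p = 0.0146) and -0.34 (edgeR adjusted p = 0.0234). DKC1, BOP1, UTP4, NIP7, POLR1E, NOP16, MYBBP1A and PPAN were the other 8. PPAN overlaps a read-through gene, so that its count is uncertain. The ribosomal protein genes themselves did not share this pattern and are described below.

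MYC is known to drive ribosome biogenesis genes through the E-box CACGTG, and the promoters of FBL and PES1 are shown because each holds this sequence close to its start site. Promoters here are the 250 bases before and 50 after the start site in RefSeq on GRCh38.p14, and both strands were searched, which for this palindrome gives the same match. This motif was added to the search after the data were seen. FBL lies on the minus strand at chr19:39846330-39846629 and PES1 on the minus strand at chr22:30591861-30592160. The E-box stands in capitals.
FBL: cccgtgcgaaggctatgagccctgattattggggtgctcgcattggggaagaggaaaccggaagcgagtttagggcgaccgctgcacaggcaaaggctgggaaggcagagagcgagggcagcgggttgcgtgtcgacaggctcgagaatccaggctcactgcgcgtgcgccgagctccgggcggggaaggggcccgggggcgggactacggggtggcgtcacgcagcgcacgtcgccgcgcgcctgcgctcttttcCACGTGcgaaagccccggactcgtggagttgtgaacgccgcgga
PES1: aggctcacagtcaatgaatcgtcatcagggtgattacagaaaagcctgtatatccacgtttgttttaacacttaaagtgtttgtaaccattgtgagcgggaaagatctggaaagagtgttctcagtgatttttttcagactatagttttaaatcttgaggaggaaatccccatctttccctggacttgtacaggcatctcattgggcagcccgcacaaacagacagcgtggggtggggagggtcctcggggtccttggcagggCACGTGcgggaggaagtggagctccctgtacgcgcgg
Of the 24 ribosome biogenesis genes with a RefSeq promoter, 9 (37.5%) held CACGTG, against 9.64% of the 13533 tested genes with one. Among all genes lower in both lines the share was 14.8% (62 of 418), against 9.77% of those higher in both, 7.53% of those higher in HCC1806 and lower in BT474, and 10.1% of those lower in HCC1806 and higher in BT474. MYBBP1A, UTP4 and RRP9 held 1 site each as well. A match is a description of the sequence and does not show binding.

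DNA replication genes were another group with members lower in both lines and in no other class. Of 26 tested genes 7 (26.9%) were lower in both by libraries, against 2.51% of all genes. The 12-library fit called 16 lower in HCC1806, where 8.05% of all genes were, and 0 in BT474. The BT474-alone fit called 7 lower, against 10.4% of all genes. The medians were -1.09 in HCC1806 and -0.17 in BT474, and 8 interactions were called, all more negative in HCC1806. Leaving out monolayer replicate 1 gave a median HCC1806 change of -1.59, and leaving out replicate 2 one of -0.39. CDT1, which loads the replicative helicase, had 55.1, 57.1, 40.7 and 35.1 CPM in HCC1806 spheroids against 147 and 142 in monolayers, and 62.9, 61.2, 63.8 and 61 CPM in BT474 spheroids against 69.6 and 77.3 in monolayers. The helicase subunit MCM5 had 95.3, 96.2, 83.4 and 82.6 CPM in HCC1806 spheroids against 220 and 218 in monolayers, and 97, 101, 105 and 97.2 CPM in BT474 spheroids against 118 and 144 in monolayers. Both fell in HCC1806 and in the BT474-alone fit (CDT1 -0.24, edgeR adjusted p = 0.0446, and MCM5 -0.39, edgeR adjusted p = 0.00877). GINS2, CDC45, MCM3, MCM7 and FEN1 were the others. Mitosis genes gave a different picture, with 0 of 27 in any class. In BT474 14 of them lay below the monolayers, as 16.9% of all genes did, and the BT474-alone fit called 12 lower, against 10.4% of all genes. In HCC1806 the list's median change was -0.85 and was -1.68 without monolayer replicate 1 and 1.09 without replicate 2. TOP2A stood at 299, 303, 216 and 183 CPM in HCC1806 spheroids, between the monolayer values of 59.4 and 665.

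**Figure D4:**
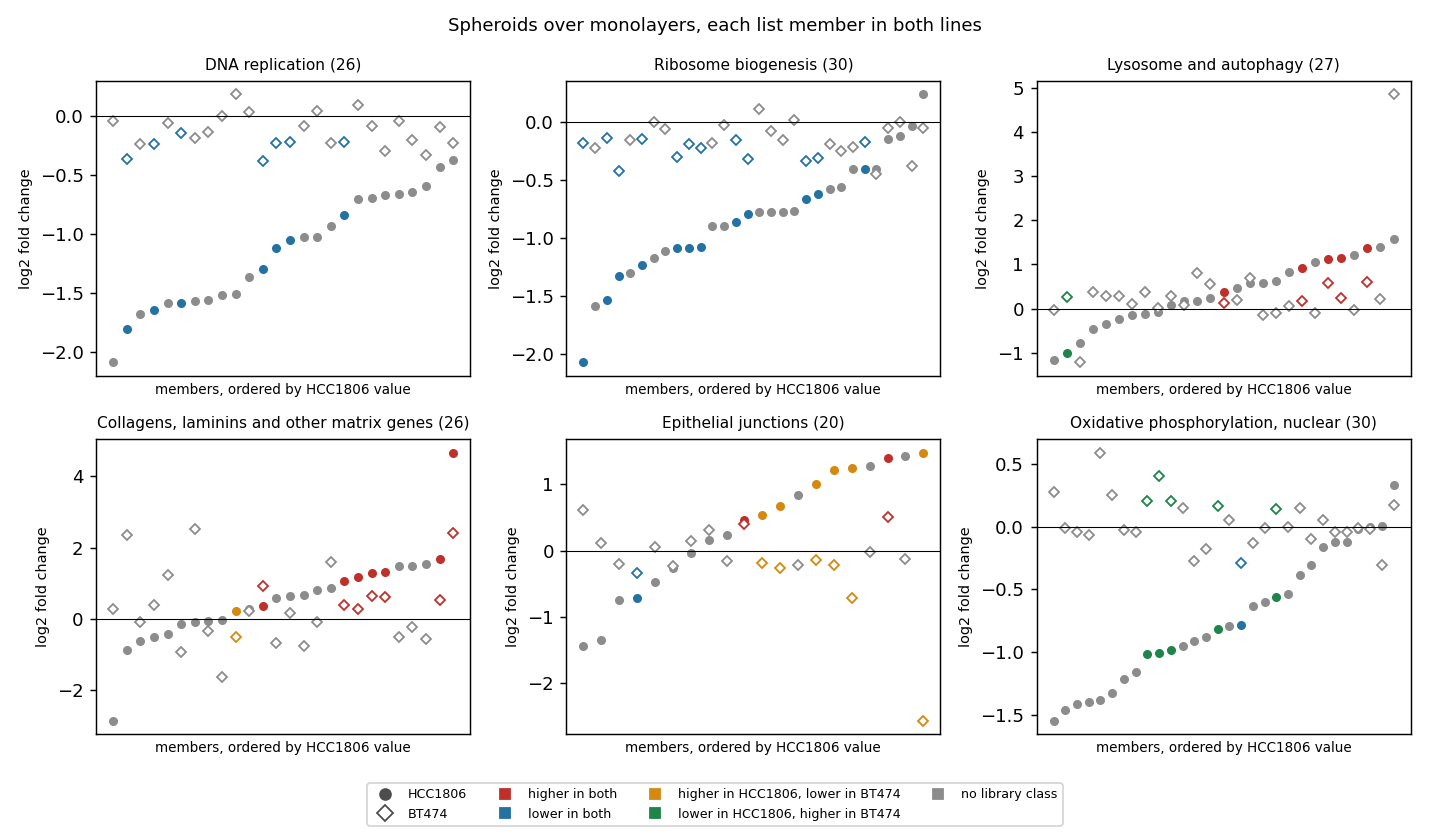
Log2 fold change of spheroids over monolayers for each tested member of 6 lists, ordered by the HCC1806 value. Filled circles are HCC1806, open diamonds BT474 and colours the library classes. Ribosome biogenesis and DNA replication members lie below 0 in HCC1806 apart from 1 gene, NOP2, and their medians are nearer to 0 in BT474.

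Of 23 tested YAP/TAZ target genes 4 (17.4%) were lower in both lines, against 2.51% of all genes. Another 1 was higher in HCC1806 and lower in BT474, and 1 was the reverse, against 3.32% and 2.05% of all genes. In HCC1806 6 members lay below the monolayers, as 13.6% of all genes did. In BT474 16 lay below, as 16.9% of all genes did. There 3 were called lower in the 12-library fit, where 0.167% of all genes were, and 12 in the BT474-alone fit, where 10.4% were. In HCC1806 5 were called lower, against 8.05% of all genes. Interactions were more positive in HCC1806 for 3 members and more negative for 2, against 2.91% and 2.0% of all genes. CYR61, a matricellular protein that is a classical YAP target, had 7.79, 7.82, 14 and 12.4 CPM in HCC1806 spheroids against 44.4 and 37.3 in monolayers, and 9.14, 8.73, 9.12 and 7.27 CPM in BT474 spheroids against 15.9 and 15.8 in monolayers. It fell by 2.01 ± 0.17 in HCC1806 (edgeR adjusted p = 0.000647) and by 0.89 in the BT474-alone fit (edgeR adjusted p = 0.000669), and its interaction of -1.12 ± 0.25 was called (edgeR adjusted p = 0.0418). AJUBA, a LIM protein that inhibits the LATS kinases, had 189, 177, 224 and 249 CPM in HCC1806 spheroids against 250 and 335 in monolayers, and 51.7, 48.8, 64 and 65.6 CPM in BT474 spheroids against 98.9 and 92.6 in monolayers. FJX1 and NT5E were the other members lower in both. CTGF, the other classical target, had 1.76, 2.29, 2.42 and 1.91 CPM in HCC1806 spheroids against 6.01 and 7.27 in monolayers and at most 0.287 CPM in BT474, and was in no class. The list's median was -0.41 in HCC1806 and -0.72 in BT474, and in HCC1806 it was -0.66 without monolayer replicate 1 and 0.21 without replicate 2.

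Immediate early genes had 3 of 25 members lower in both lines and 1 (4.0%) higher in both, against 2.51% and 4.18% of all genes. With library totals in place of TMM factors the counts were 2 lower and 3 higher in both. FOSL1, an AP-1 subunit, had 14.4, 11.6, 18 and 11.9 CPM in HCC1806 spheroids against 64.3 and 74.1 in monolayers, and at most 0.263 CPM in any BT474 library. IER3 and DUSP2 were the other 2 on the lower side, and FOSL2, described above, stood on the higher side.

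The 9 genes that were called higher in HCC1806 spheroids and lower in BT474 spheroids included a collagenase, an iron exporter, a drug transporter and a survival gene. MMP13 (ENSG00000137745, chromosome 11, 102942995 to 102955734), a collagenase, had 41.4, 45.7, 143 and 122 CPM in HCC1806 spheroids against 2.08 and 2.44 in monolayers, and 0.171, 0.254, 0.161 and 0.105 CPM in BT474 spheroids against 0.886 and 0.807 in monolayers. It rose by 5.06 ± 0.24 in HCC1806 (edgeR adjusted p = 9.76e-05) and fell by 2.29 ± 0.23 in BT474 (edgeR adjusted p = 0.00871). The interaction was 7.35 ± 0.32 (edgeR adjusted p = 9.79e-05), and in BT474 the gene stood under 1 CPM in every library. It was the only 1 of 20 tested metalloproteinase and plasminogen genes in a class over both lines. SLC40A1 (ENSG00000138449, chromosome 2, 189560579 to 189583758), ferroportin, the exporter of iron, had 97.3, 107, 92.6 and 91.9 CPM in HCC1806 spheroids against 15.1 and 15.6 in monolayers, and 51.6, 50.3, 55.7 and 56.5 CPM in BT474 spheroids against 100 and 99.5 in monolayers. Both pairs of monolayers were close in this gene, and the interaction of 3.56 ± 0.17 was called (edgeR adjusted p = 0.00012). In spheroids HCC1806 stood above BT474, whereas in monolayers it stood below.

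ABCC3 (ENSG00000108846, chromosome 17, 50634777 to 50692252), an efflux transporter of organic anions and drug conjugates, had 171, 163, 146 and 137 CPM in HCC1806 spheroids against 61.5 and 53.4 in monolayers, and 60.2, 56.5, 129 and 112 CPM in BT474 spheroids against 337 and 188 in monolayers. BCL2 (ENSG00000171791, chromosome 18, 63123346 to 63320128), the inhibitor of apoptosis, had 28.2, 26.5, 25.3 and 24.8 CPM in HCC1806 spheroids against 13.7 and 12.8 in monolayers, and 13.5, 14, 12.3 and 12.7 CPM in BT474 spheroids against 22.3 and 31.6 in monolayers. Their interactions were 3.06 ± 0.32 and 2.03 ± 0.25, with edgeR adjusted p of 0.00441 and 0.00714. DNAJC6, auxilin, which strips clathrin from vesicles, had 5.08, 5.93, 18.4 and 19.3 CPM in HCC1806 spheroids against 2.16 and 0.988 in monolayers, and 1.66, 1.98, 2.9 and 1.82 CPM in BT474 spheroids against 10.2 and 10.4 in monolayers, with an HCC1806 change of 3.28 when monolayer replicate 1 was left out and 2.26 when replicate 2 was. LIMCH1 changed by 1.08 ± 0.15 in HCC1806 and -0.86 ± 0.14 in BT474, STS, steroid sulfatase, by 0.75 ± 0.16 and -0.98 ± 0.15, and PDZD2, which lies outside the rule for named genes, by 0.69 ± 0.18 and -1.07 ± 0.17. GLI3, a transcription factor of Hedgehog signalling, had 22 counts over the HCC1806 spheroids against 0 in the monolayers, at least 2.82-fold higher. In BT474 it fell, with 7.33, 7.38, 9.73 and 7.11 CPM in spheroids against 30.3 and 22 in monolayers. All 9 genes kept a positive HCC1806 change without either monolayer library. They were separated by libraries, so that this sign was nearly fixed in advance and adds no support.

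Epithelial junction genes had the most members in this class among the 41 lists. Of 20 tested members 6 (30.0%) were higher in HCC1806 and lower in BT474, against 3.32% of all genes, 2 were higher in both and 1 was lower in both. The 6 were the tight junction genes CLDN1, OCLN and MARVELD2 and the genes of adherens junctions and desmosomes CTNND1, JUP and PKP1. PKP1, plakophilin 1 of desmosomes, had 618, 563, 989 and 1020 CPM in HCC1806 spheroids against 257 and 392 in monolayers, and 27.9, 30.4, 20.7 and 21.1 CPM in BT474 spheroids against 40.6 and 40.5 in monolayers. Its interaction was 1.96 ± 0.26 (edgeR adjusted p = 0.00831). MARVELD2, tricellulin, had 34.4, 37.4, 33.5 and 33.4 CPM in HCC1806 spheroids against 21.3 and 22.2 in monolayers, and 47.5, 43.9, 45.9 and 46.1 CPM in BT474 spheroids against 51.8 and 57.7 in monolayers, with an interaction of 0.93 ± 0.19 (edgeR adjusted p = 0.03). The interactions of CLDN1, OCLN, CTNND1 and JUP were not called. CTNND1 had 1080, 1040, 993 and 943 CPM in HCC1806 spheroids against 369 and 640 in monolayers, and 454, 457, 441 and 443 CPM in BT474 spheroids against 483 and 513 in monolayers, a BT474 change of -0.15 ± 0.21. CLDN1 had at most 0.335 CPM in any BT474 library. TJP3 and F11R were the 2 members higher in both lines, and PKP3, another plakophilin, was lower in both. Of 20 members 5 were called higher and 2 lower in HCC1806, where 8.01% and 8.05% of all genes were. The BT474-alone fit called 4 higher and 5 lower, against 10.5% and 10.4% of all genes.

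HIF target genes in a class over both lines were shared or opposite in equal number at the main scaling. Of 26 tested members 4 (15.4%) were higher in both lines, against 4.18% of all genes, namely BNIP3L, KDM3A, BHLHE40 and MXI1. Another 4 (15.4%) were higher in HCC1806 and lower in BT474, against 3.32%, namely EGLN1, LOX, SLC2A1 and CA12. None was in a class on the lower side in HCC1806. With library totals in place of TMM factors 6 were higher in both and 4 higher in HCC1806 and lower in BT474. In BT474 12 members lay above the monolayers and 4 below, against 18.2% and 16.9% of all genes. The BT474-alone fit called 11 higher and 3 lower, against 10.5% and 10.4%. BHLHE40, a repressor of the circadian clock, had 124, 121, 144 and 131 CPM in HCC1806 spheroids against 25.1 and 36.3 in monolayers, and 11.3, 16.3, 15.1 and 11.2 CPM in BT474 spheroids against 7.42 and 5.7 in monolayers. It rose by 2.08 ± 0.25 in HCC1806 (edgeR adjusted p = 0.00209) and by 1.04 in the BT474-alone fit (edgeR adjusted p = 0.00352). SLC2A1, the glucose transporter GLUT1, had 509, 477, 544 and 553 CPM in HCC1806 spheroids against 243 and 227 in monolayers, and 128, 141, 118 and 116 CPM in BT474 spheroids against 144 and 175 in monolayers. CA12, a carbonic anhydrase at the cell surface, had 55.4, 48.9, 76.9 and 65.1 CPM in HCC1806 spheroids against 8.69 and 19.5 in monolayers, and 62.4, 77.4, 45.7 and 49.2 CPM in BT474 spheroids against 128 and 150 in monolayers. The interactions of EGLN1, the prolyl hydroxylase that marks HIF for breakdown, of SLC2A1 and of CA12 were called at 1.33 ± 0.19, 1.49 ± 0.2 and 3.38 ± 0.41, with edgeR adjusted p of 0.0112, 0.00897 and 0.00714. LOX, lysyl oxidase, had 5.08, 5.16, 15.2 and 18.2 CPM in HCC1806 spheroids against 3.0 and 3.76 in monolayers, and 0.831, 0.889, 1.05 and 0.395 CPM in BT474 spheroids against 1.39 and 1.07 in monolayers. CA9, the carbonic anhydrase most used as a marker of hypoxia, stayed at or under 2.69 CPM in HCC1806 and 0.127 CPM in BT474. The list's median change was 0.43 in HCC1806 and 0.25 in BT474.

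BHLHE40 and LOX stood in different classes, and their promoters are shown because both hold the core of the hypoxia response element. The core ACGTG was searched on both strands, and on the minus strand it reads CACGT. The BHLHE40 promoter lies on the plus strand at chr3:4979187-4979486 and the LOX promoter on the minus strand at chr5:122078210-122078509, in the same table of 300 bases a gene, and capitals mark the cores.
BHLHE40: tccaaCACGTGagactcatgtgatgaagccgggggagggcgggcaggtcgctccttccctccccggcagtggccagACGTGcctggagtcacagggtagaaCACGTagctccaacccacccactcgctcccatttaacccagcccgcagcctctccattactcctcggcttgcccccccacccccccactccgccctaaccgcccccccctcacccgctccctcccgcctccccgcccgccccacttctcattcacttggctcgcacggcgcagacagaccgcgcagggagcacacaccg
LOX: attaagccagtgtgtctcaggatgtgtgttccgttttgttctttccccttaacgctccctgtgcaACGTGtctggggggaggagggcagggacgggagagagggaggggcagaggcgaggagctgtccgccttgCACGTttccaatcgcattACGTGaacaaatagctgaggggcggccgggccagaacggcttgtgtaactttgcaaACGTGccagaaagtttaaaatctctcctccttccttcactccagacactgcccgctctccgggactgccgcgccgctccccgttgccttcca
Each held 4 matches, counted over both strands, and in BHLHE40 the first 2 overlap in the E-box. EGLN1 held 1, and KDM3A, MXI1, SLC2A1 and CA12 held 0 in this window. In the list 11 of 22 promoters held the core, against 25.6% of those of all tested genes. Ribosome biogenesis genes held it in 54.2% of promoters, mitosis genes in 40.9% and DNA replication genes in 36.4%. Interferon-stimulated, amino acid stress and cholesterol synthesis genes held it in 23.1%, 17.6% and 23.5%. The shares were 26.3% among genes higher in both lines and 29.7% among genes lower in both. They were 23.0% among genes higher in HCC1806 and lower in BT474 and 26.1% among the reverse.

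Fewer than 5 protein-coding genes with a mean of at least 5 CPM were called in both lines as lower in HCC1806 and higher in BT474. The genes described here were therefore taken from the library class with a called interaction, where 100 protein-coding genes reached that mean. PRSS23 (ENSG00000150687, chromosome 11, 86791059 to 86952910), a secreted serine protease, had 25.6, 24.3, 45.4 and 49.4 CPM in HCC1806 spheroids against 114 and 59.3 in monolayers, and 489, 502, 482 and 560 CPM in BT474 spheroids against 82.6 and 72.4 in monolayers. It fell by 1.34 ± 0.23 in HCC1806 (edgeR adjusted p = 0.00734) and rose by 2.71 ± 0.27 in BT474 (edgeR adjusted p = 0.00909), with an interaction of -4.05 ± 0.35 (edgeR adjusted p = 0.00254). Its HCC1806 change was -0.87 when monolayer replicate 1 was left out and -1.71 when replicate 2 was. TPM2 (ENSG00000198467, chromosome 9, 35681992 to 35690121), beta-tropomyosin of actin filaments, had 40.5, 43.3, 44.6 and 45.4 CPM in HCC1806 spheroids against 89.5 and 97.4 in monolayers, and 0.855, 0.635, 0.672 and 0.632 CPM in BT474 spheroids against 0.191 and 0.285 in monolayers. The HCC1806 monolayers lay close in TPM2, and its HCC1806 change was -1.25 and -1.02 without each of them. OSGIN1, an NRF2 target that restrains growth, had 18.5, 13, 16.4 and 16.9 CPM in HCC1806 spheroids against 27.4 and 23.4 in monolayers, and 40.9, 41.4, 48.3 and 49.7 CPM in BT474 spheroids against 20.9 and 17.1 in monolayers. These 3 genes and 2 others, the B-cell lectin gene CD22 and the pseudogene CYP2B7P, were called in both lines. CYP2B7P is a close copy of a cytochrome P450 gene, and its count is uncertain for that reason. CD22 stood under 5 CPM in every library.

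GADD45B, a stress sensor related to GADD45A, had 19.4, 16, 17.5 and 16 CPM in HCC1806 spheroids against 48.2 and 30 in monolayers, and 30.3, 30.9, 30.2 and 35.1 CPM in BT474 spheroids against 14.5 and 15.3 in monolayers. The insulin-like growth factor binding protein IGFBP6 had 64.2, 59.2, 29.6 and 31 CPM in HCC1806 spheroids against 175 and 78.9 in monolayers and at most 0.311 CPM in BT474. CLDN11, a claudin, fell by 1.93 ± 0.37 in HCC1806 (edgeR adjusted p = 0.0114). In BT474 it had 54 counts over the spheroids and 2 over the monolayers, 12.1 times as many after scaling (95% interval from counting error alone, 3.2 to 103). PLEK2, pleckstrin 2, changed by -0.97 ± 0.16 in HCC1806 and 0.99 ± 0.17 in BT474, with an interaction of -1.96 ± 0.23 (edgeR adjusted p = 0.00621). The coactivator CITED4 and the Nudix hydrolase NUDT8 had interactions of -2.5 ± 0.57 and -1.89 ± 0.39, and the HCC1806 change of both was smaller without monolayer replicate 1. CITED4 stood at 98.1 CPM there and at 28.2 in replicate 2, against 23.3 to 28 in HCC1806 spheroids, and its HCC1806 change was -0.19 without replicate 1. For NUDT8 that change was -0.31 (edgeR adjusted p = 0.0878).

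Nuclear genes of oxidative phosphorylation were mostly in this class where they were in any. Of 30 tested members 5 (16.7%) were lower in HCC1806 and higher in BT474, against 2.05% of all genes, and 1 was lower in both. With library totals 3 were lower in HCC1806 and higher in BT474, 2 lower in both and 1 higher in HCC1806 and lower in BT474. The 5 were the complex I subunits NDUFB3 and NDUFV1 and the cytochrome oxidase subunits COX5A, COX6C and COX7A2. COX7A2 had 64.5, 58.3, 55 and 62.8 CPM in HCC1806 spheroids against 163 and 80.6 in monolayers, and 156, 156, 157 and 166 CPM in BT474 spheroids against 135 and 140 in monolayers. NDUFV1 had 137, 131, 140 and 150 CPM in HCC1806 spheroids against 320 and 171 in monolayers, and 386, 405, 378 and 381 CPM in BT474 spheroids against 351 and 340 in monolayers. In both genes HCC1806 monolayer replicate 1, which had the high mitochondrial share, stood well above replicate 2. None of the 5 interactions was called. CYC1, cytochrome c1 of complex III, was lower in both, at 177, 160, 163 and 177 CPM in HCC1806 spheroids against 326 and 257 in monolayers, and 215, 228, 239 and 222 CPM in BT474 spheroids against 297 and 254 in monolayers. The list's median was -0.81 in HCC1806, with 11 members called lower (8.05% of all genes were) and 0 higher, and -0.01 in BT474. Without each HCC1806 monolayer it was -0.37 and -1.05.

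The next 3 lists could not be placed in HCC1806. All 13 mitochondrially encoded protein genes lay above the monolayers in BT474, with a median change of 1.23, and the BT474-alone fit called 11 higher. Of all genes 18.2% lay above in BT474 and 10.5% were called higher in that fit. In HCC1806 none was separated, and the median was 1.33 without monolayer replicate 1 and -3.73 without replicate 2. Their summed level was 6610 to 17500 CPM in HCC1806 spheroids against 5550 and 194000 in monolayers, and 31100 to 53500 CPM in BT474 spheroids against 18700 and 18800 in monolayers. Of 30 ribosomal protein genes 23 lay above the monolayers in BT474 and 15 were called higher in the BT474-alone fit, with a median of 0.20. In HCC1806 1 lay below and 0 above. Of 34 interferon-stimulated genes 13 lay above the monolayers and 2 below in BT474, 9 were called higher in the BT474-alone fit, and the median HCC1806 change without each monolayer library was 2.27 and -1.31. In these 3 lists no gene was in a class over both lines, although with library totals 2 interferon-stimulated genes were higher in both and 1 was higher in HCC1806 and lower in BT474, and at most 1 member of each was separated in HCC1806.

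The remaining lists are described more briefly. Their shares stand against 4.18% of all genes higher in both and 2.51% lower in both. Of all genes 3.32% were higher in HCC1806 and lower in BT474, and 2.05% were the reverse. Squamous differentiation had 4 of 31 genes (12.9%) higher in both lines, KRT16, IVL, DSC3 and KLK7. KRT1 and KRT13 (6.45%) were higher in HCC1806 and lower in BT474, a class that held 4 with library totals. In HCC1806 18 of the 31 lay above the monolayers and 0 below, against 20.6% and 13.6% of all genes. IVL, involucrin of the cornified envelope, had 87.3, 83.8, 148 and 122 CPM in HCC1806 spheroids against 5.49 and 24.8 in monolayers, and 0.879, 1.34, 0.834 and 1.69 CPM in BT474 spheroids against 0.383 and 0.712 in monolayers. KRT16 had 210, 174, 459 and 436 CPM in HCC1806 spheroids against 56.3 and 16.7 in monolayers, and 3.47, 4.94, 5.86 and 4.58 CPM in BT474 spheroids against 1.75 and 1.04 in monolayers, and shares sequence with other type I keratins, so that its count is uncertain. The squamous genes summed to 5490 to 7370 CPM in HCC1806 spheroids against 2790 to 3530 in monolayers, and to 227 to 291 CPM in BT474 spheroids against 183 to 218 in monolayers. The kallikrein KLK7 had 180 counts over the BT474 spheroids against 0 in the monolayers, at least 26.9-fold higher, and was not called in HCC1806 (1.05 ± 0.43). Of 19 tested luminal genes 1 (5.26%), ELF3, was higher in both lines. Another 3 (15.8%), FOXA1 and CA12 among them, were higher in HCC1806 and lower in BT474. FOXA1, a pioneer factor of luminal cells, had 98.3, 97.3, 40.6 and 38.2 CPM in HCC1806 spheroids against 13.6 and 30.6 in monolayers, and 387, 372, 397 and 366 CPM in BT474 spheroids against 475 and 437 in monolayers, with an interaction of 1.75 ± 0.39 (edgeR adjusted p = 0.0412), and an HCC1806 change of 0.94 when monolayer replicate 1 was left out and 2.21 when replicate 2 was. Of 16 tested basal markers CAV1, MYLK and CDH3 (18.8%) were lower in both. LAMB3 (6.25%) was higher in both and TRIM29 (6.25%) was higher in HCC1806 and lower in BT474. CAV1, caveolin 1, had 134, 129, 160 and 145 CPM in HCC1806 spheroids against 300 and 1100 in monolayers, and 0.195, 0.282, 0.215 and 0.0527 CPM in BT474 spheroids against 1.01 and 1.28 in monolayers.

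In the BCL2 family, with 16 genes tested, the pro-apoptotic genes BCL2L11 and PMAIP1 (12.5%) were higher in both lines. BAK1 was lower in both, BCL2 was higher in HCC1806 and lower in BT474, and BAX was the reverse (6.25% each). BCL2L11, which encodes BIM, had 34.3, 36.4, 20.8 and 24.8 CPM in HCC1806 spheroids against 13.2 and 13.4 in monolayers, and 55.5, 51.8, 59.4 and 68.3 CPM in BT474 spheroids against 40.1 and 41.9 in monolayers. BAX had 75.9, 62.9, 61.3 and 63.3 CPM in HCC1806 spheroids against 162 and 115 in monolayers, and 55.4, 59.1, 59.3 and 55.8 CPM in BT474 spheroids against 50.1 and 48.5 in monolayers, with an interaction of -1.3 ± 0.24 (edgeR adjusted p = 0.0227). Of 26 NRF2 targets 1 (3.85%), the glutathione synthesis gene GCLC, was higher in HCC1806 and lower in BT474 (interaction 1.42 ± 0.17, edgeR adjusted p = 0.00696). The reverse held for 2 (7.69%), OSGIN1 and the thioredoxin gene TXN (TXN interaction -1.3 ± 0.2, edgeR adjusted p = 0.0124). Of 22 p53 targets 3 (13.6%) were higher in both lines and 2 (9.09%) lower in both. Another 1 (4.55%) was higher in HCC1806 and lower in BT474, and 2 (9.09%) were the reverse. With library totals these p53 counts were 3, 0, 3 and 2. Of 19 ABC transporters 2 (10.5%) were higher in both and 2 (10.5%) higher in HCC1806 and lower in BT474. Of 17 tested Wnt targets 2 (11.8%), AXIN2 and the stem cell receptor LGR6, were higher in both lines. LGR6 had 28, 24.8, 30.5 and 32.4 CPM in HCC1806 spheroids against 6.61 and 6.7 in monolayers, and 1.03, 1.65, 1.56 and 2.34 CPM in BT474 spheroids against 0.383 and 0.0475 in monolayers. The chaperonin gene HSPE1 was lower in HCC1806 and higher in BT474 (interaction -1.8 ± 0.28, edgeR adjusted p = 0.0128). HSPA1B, higher in both, has a near-identical copy and an uncertain count. No member of the fatty acid synthesis, class I antigen presentation or metallothionein lists was in a class over both lines, although with library totals 2 class I genes were, and with RLE size factors 1 fatty acid synthesis gene.

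Other genes were called and separated in 1 line while the other line overlapped, and the interaction was called. They were counted among protein-coding genes outside chromosome Y with a mean of at least 5 CPM, and not among all genes tested. In HCC1806 these were 191 genes on the higher side and 174 on the lower, and in BT474 15 and 8. Of all genes tested 8.01% were called higher and 8.05% lower in HCC1806, and 0.282% and 0.167% in BT474. The BT474-alone fit called 10.5% higher and 10.4% lower. The counts therefore do not show that more genes changed in HCC1806 alone than in BT474 alone. CEACAM5, the carcinoembryonic antigen, had 61.7, 51.8, 42.4 and 27 CPM in HCC1806 spheroids against 0.24 and 1.21 in monolayers, and 7.16, 6.97, 4.46 and 6.08 CPM in BT474 spheroids against 5.22 and 6.13 in monolayers. Its change in HCC1806 was 5.11 when monolayer replicate 1 was left out and 7.53 when replicate 2 was. Its neighbour CEACAM7 had 96 counts over the HCC1806 spheroids against 0 in the monolayers, at least 12.3-fold higher. SBSN, suprabasin of the epidermis, rose by 5.91 ± 0.5 (edgeR adjusted p = 0.000656), and PGLYRP3, a peptidoglycan recognition protein, by 5.63 ± 0.79 (edgeR adjusted p = 0.00671). ZBTB7C, a zinc finger gene, had 743 counts over the HCC1806 spheroids and 2 over the monolayers, 143 times as many after scaling (39.4 to 1180), while BT474 held it at 89.4, 94.1, 95.6 and 102 CPM in spheroids against 102 and 91.7 in monolayers.

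AREG, amphiregulin, a ligand of the EGF receptor, led the lower side in HCC1806 together with KIF1A. AREG had 3.74, 4.0, 4.24 and 3.06 CPM in HCC1806 spheroids against 46.4 and 26.2 in monolayers, and 16.4, 16.7, 10.3 and 8.66 CPM in BT474 spheroids against 12.3 and 13.1 in monolayers. It fell by 3.27 ± 0.25 in HCC1806 (edgeR adjusted p = 0.000594), was not called in BT474 (-0.02 ± 0.25), and gave an interaction of -3.25 ± 0.37 (edgeR adjusted p = 0.00574). KIF1A, a kinesin of synaptic vesicle transport, UPP1, uridine phosphorylase, and the neighbouring mitochondrial genes MRPL12 and SLC25A10 fell in HCC1806, with changes of -3.3 ± 0.46, -2.27 ± 0.23, -2.53 ± 0.4 and -2.18 ± 0.22. The KIF1A change was -1.98 when monolayer replicate 1 was left out and -3.99 when replicate 2 was. Without monolayer replicate 1 the MRPL12 change was -1.38.

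In BT474 the higher side was led by kallikrein genes. KLK12, a secreted serine protease, had 0.212, 0.0263, 0.343 and 0.338 CPM in HCC1806 spheroids against 0.16 and 0.137 in monolayers, and 19.4, 25.6, 32.1 and 31.3 CPM in BT474 spheroids against 0.503 and 0.499 in monolayers. KLK10, its neighbour on chromosome 19, had 66.2, 64, 85.1 and 58.2 CPM in HCC1806 spheroids, between the monolayers at 56 and 183, and 7.4, 7.78, 9.44 and 8.0 CPM in BT474 spheroids against 0.12 and 0.665 in monolayers. NOS3, the endothelial nitric oxide synthase, rose by 3.4 ± 0.4 in BT474 (edgeR adjusted p = 0.0187), TP73, a p53 relative, by 3.07 ± 0.42, and UGT8, which makes galactosylceramide, by 3.04 ± 0.42. On the lower side SMAD6, an inhibitor of BMP signalling, had 40, 36.3, 57.9 and 64.7 CPM in HCC1806 spheroids against 40.4 and 38.8 in monolayers, and 3.18, 3.98, 6.24 and 2.9 CPM in BT474 spheroids against 28.7 and 31.8 in monolayers. It fell by 2.9 ± 0.26 in BT474 (edgeR adjusted p = 0.00788) with an interaction of 3.19 ± 0.39 (edgeR adjusted p = 0.00714). IGFBP3, which binds insulin-like growth factors, had 0.806, 0.988, 5.3 and 0.527 CPM in BT474 spheroids against 34.3 and 67.2 in monolayers. FSTL1, SVEP1 and NLRP1 fell in BT474 with changes of -1.82 ± 0.22, -3.87 ± 0.62 and -4.34 ± 0.61, NLRP1 at no more than 0.287 CPM in any BT474 library.

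A panel of 30 stem cell, receptor, proliferation and hypoxia genes was read in full. Of these CD44, CD24, SOX2 and ERBB3 were higher in both lines by libraries, CYR61 was lower in both, and ERBB2, NOTCH1 and ABCC3 were higher in HCC1806 and lower in BT474. ERBB2 had 222, 210, 180 and 171 CPM in HCC1806 spheroids against 116 and 122 in monolayers, a rise of 0.71 ± 0.17 (edgeR adjusted p = 0.0269), and 5930, 5980, 6480 and 6490 CPM in BT474 spheroids against 7530 and 6600 in monolayers, a BT474 change of -0.18 ± 0.17 that was not called. NDRG1, a hypoxia and differentiation gene, rose by 2.81 ± 0.24 in HCC1806 (edgeR adjusted p = 0.000656) with an interaction of 2.35 ± 0.3 (edgeR adjusted p = 0.00766), and the BT474-alone fit also called it higher (0.46, edgeR adjusted p = 0.0104), although its BT474 day 20 spheroids overlapped the monolayers. NOTCH3 rose by 1.47 ± 0.2 in HCC1806 (edgeR adjusted p = 0.00319), with an interaction of 1.27 ± 0.27 (edgeR adjusted p = 0.0377). GATA3, a luminal transcription factor, had 242, 239, 190 and 207 CPM in HCC1806 spheroids against 208 and 58.3 in monolayers, and 50.3, 50, 58.8 and 43.7 CPM in BT474 spheroids against 193 and 173 in monolayers, with an interaction of 2.57 ± 0.58 (edgeR adjusted p = 0.0439). CCND1, cyclin D1, had 186, 184, 214 and 200 CPM in BT474 spheroids against 385 and 377 in monolayers, and in HCC1806 its spheroids lay between the monolayers. VEGFA and SOX9 lay above the monolayers in BT474, and in HCC1806 their spheroids overlapped monolayer values. EGFR, ESR1, KLF4, TP63, PGR, PROM1, ALDH1A1, ALDH1A3, ABCB1, ABCG2, CA9, CTGF, ITGA6, MKI67, TOP2A and AREG were in no class over both lines either.

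Time in spheroid culture, which the classes did not use, gave few calls. Day 20 against day 10 gave 0 called genes in each line in the 12-library fit, where 756 genes in HCC1806 and 320 in BT474 had an unadjusted p under 0.05, and 6 higher and 21 lower in the BT474-alone fit. Among genes higher in both lines, both day 20 libraries lay above both day 10 libraries for 26.1% in HCC1806 and 30.1% in BT474, against 23.4% and 21.7% of all genes. They lay below for 31.0% and 21.8%, against 26.3% and 22.7%. Among genes lower in both they lay below for 34.4% in HCC1806 and 29.5% in BT474. Among genes lower in HCC1806 and higher in BT474 they lay below for 36.3% in HCC1806 and above for 30.2% in BT474.

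The gap between the lines was also compared. The difference between HCC1806 and BT474 was smaller in spheroids than in monolayers for 58.1% of the genes higher in both, 57.4% of those higher in HCC1806 and lower in BT474, 48.5% of those lower in both and 51.9% of those lower in HCC1806 and higher in BT474, against 52.9% of all genes. HCC1806 monolayers stood above BT474 monolayers for 26.6% of the genes higher in HCC1806 and lower in BT474 and for 74.2% of those with the reverse order, against 53.9% of all genes. The starting level and the direction share the same monolayer values, and no test was made of it.

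The classes rest on small gaps for many members. The log2 gap between the nearest spheroid and monolayer library, taken in the line where it was smaller and with 0.1 CPM added, had a median of 0.139 for genes higher in both, 0.078 for genes lower in both, 0.122 for genes higher in HCC1806 and lower in BT474, and 0.088 for the reverse. It was at least 1 for 33, 2, 6 and 4 genes, and under 0.1 for 342, 315, 307 and 236 genes of the 4 classes in that order. Just inside the class higher in both stood TAB1, with a gap of 0.000253 in HCC1806 and 0.0805 in BT474. Just outside stood COX6B2, with a gap of 0.956 in HCC1806 and 0.0 in BT474. Of the 875, 526, 695 and 430 members, 530, 364, 387 and 259 were called with 1 sign in HCC1806 whichever monolayer library was left out, and 456, 214, 379 and 183 were called in the BT474-alone fit. Members that met both numbered 327, 161, 246 and 118. These counts come from the same comparison that placed the genes and are given as a description. Protein-coding genes made up 88.9%, 91.6%, 90.4% and 82.6% of the 4 classes and 73.2% of all genes tested.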

How the data were processed

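RNA-seq libraries of HCC1806 and BT474 spheroids and monolayers were compared. Per the labels' protocols, poly(A) RNA was sequenced as read pairs of 150 bases, and per the submitters' processing notes reads were handled with HISAT2 2.2.1 and featureCounts 2.0.6 on GRCh38. The authors deposited raw gene counts and FPKM values, and the strand setting is not given in the sources used here. No deposited column lacked a sample.

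The counts of 12 libraries in 6 groups were fitted in 1 model with edgeR 4.0.16 (R 4.3.3, TMM scaling, filterByExpr with a minimum count of 10 and a total of 15, robust quasi-likelihood test), leaving 20929 of 58735 genes. Contrasts were the mean of day 10 and day 20 minus monolayer in each line and the difference HCC1806 minus BT474. Adjusted p-values are Benjamini-Hochberg over all genes tested, and the SE is the log2 fold change divided by the root of F. CPM are TMM-scaled. BT474-alone values come from a fit of its 6 libraries. FPKM, as deposited by the authors, were used in limma 3.58.1 on log2(FPKM + 0.1) as an alternative only, and DESeq2 1.42.0 was another. A ratio over few counts has a 95% interval for counting error only. A gene at 0 counts in a group is set against 3 counts over that group. Scripts were tested on simulated data.

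Named genes are protein-coding, average at least 5 CPM, are called and separated in both lines, and rank first by the smaller absolute log2 change of the lines, up to 10 for each shared and 8 for each opposite class. With under 5 such genes, the library class with a called interaction was used. To these come 5 per direction called in 1 line only, up to 3 called members per list and class, and a panel of 30 genes. Other list members in a library class and the remaining genes called in both lines were added after their values were seen. The members, the 41 lists and the panel were chosen with earlier results of these data known. One list member is not reported here, though totals include it. Replicate numbers did not pair the libraries. Promoters are RefSeq sequences on GRCh38.p14 matched by symbol, and 13533 tested genes had one.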

Additional observations from a re-analysis of the deposited data

Results flagged for a closer look

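The effect of spheroid culture differed between HCC1806 and BT474 for the genes listed here, as tested by the interaction of line and format (edgeR, adjusted p under 0.05). Values in brackets are the HCC1806 minus the BT474 log2 change. The HCC1806 monolayer pair that stood apart enters each of them.

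The difference was positive, with the more positive change in HCC1806, for genes called in opposite directions, namely MMP13 (7.35), GLI3 (7.26), DNAJC6 (5.01), SLC40A1 (3.56), ABCC3 (3.06), BCL2 (2.03), LIMCH1 (1.95), PDZD2 (1.76) and STS (1.74). Among list members in opposite library classes it was positive for KRT1 (9.93), CA12 (3.38), TCF4 (2.76), NOTCH1 (2.35), PKP1 (1.96), CDKN1A (1.91), FOXA1 (1.75), SLC2A1 (1.49), TCF7L2 (1.49), HK1 (1.47), GCLC (1.42), EGLN1 (1.33), CDKN1B (1.07) and MARVELD2 (0.93). TCF4 and TCF7L2 encode transcription factors and HK1 a hexokinase. Both lines rose and HCC1806 more for ELF5 (3.38), AQP3 (1.45) and FAM84A (1.45). Genes called higher in HCC1806 and not in BT474 in the 12-library fit were PGLYRP3 (9.69), CEACAM7 (7.36), ZBTB7C (6.91), CEACAM5 (5.77), SBSN (5.05), NDRG1 (2.35) and NOTCH3 (1.27). The BT474-alone fit called NDRG1 higher (0.46, edgeR adjusted p = 0.0104). Genes on the lower side in BT474, with overlap in HCC1806, were IGFBP3 (5.89), NLRP1 (4.23), SVEP1 (3.76), SMAD6 (3.19), GATA3 (2.57) and FSTL1 (1.99).

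The difference was negative for the genes lower in HCC1806 and higher in BT474, namely CD22 (-7.19), CLDN11 (-5.27), CYP2B7P (-5.25), PRSS23 (-4.05), IGFBP6 (-3.31), TPM2 (-2.64), CITED4 (-2.5), GADD45A (-2.4), GADD45B (-2.27), PLEK2 (-1.96), OSGIN1 (-1.89), NUDT8 (-1.89), HSPE1 (-1.8), SLC16A3 (-1.74), TXN (-1.3), BAX (-1.3), GLA (-1.27) and MANF (-1.12). SLC16A3 encodes a lactate transporter and MANF a secreted factor of the unfolded protein response. BT474 rose and had the more positive change for KLK7 (-7.23), SHISAL1 (-5.55), KLK12 (-5.27), KLK10 (-5.17), NOS3 (-3.51), UGT8 (-3.49) and TP73 (-2.72). HCC1806 fell and had the more negative change for AREG (-3.25), KIF1A (-3.07), MRPL12 (-2.52), SLC25A10 (-2.21), UPP1 (-2.1), GINS2 (-1.44), CDC45 (-1.44), CDT1 (-1.41), FBL (-1.4), CYR61 (-1.12), MCM5 (-0.91) and PES1 (-0.89). The values of CEACAM7, GLI3, KLK7, PGLYRP3 and SHISAL1 involve a group at 0 counts, depend on the prior count of the fit and are no bound. Without HCC1806 monolayer replicate 1 the interactions of CITED4 and NUDT8 were -1.43 and -1.27.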

How the results depend on the processing

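Of 278 called gene results, 1 kept its call and direction under all 25 alternatives and 2 changed sign. The SHISAL1 interaction was 1.41 in limma on log2 FPKM, and the ABCG2 change in HCC1806 was 0.29 without HCC1806 monolayer replicate 2 and -4.55 without replicate 1. DESeq2 kept the call of 277 of the 278, the fit without HCC1806 monolayer replicate 1 that of 275, the fit without HCC1806 monolayer replicate 2 that of 272, and voom with group quality weights that of 50. That last fit gave the HCC1806 monolayers a weight of 0.0455, against 0.948 to 2.79 for the other groups, and moved the median HCC1806 change by 0.17. The count of called genes depended on the setting throughout, and the cause was not tested. The counts below are, in order, genes called in HCC1806, in BT474 and for the interaction, then called higher in both, lower in both, higher in HCC1806 and lower in BT474, and the reverse, given where they moved by over 1.5 times.

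Library totals in place of TMM factors gave 56 genes in BT474 and 3, 4 and 2 in the classes after the first, with library classes of 1202 higher in HCC1806 and lower in BT474 and 194 the reverse. No filter on low counts gave 599 in BT474, 2410 for the interaction and 99, 44, 67 and 60 in the classes. A minimum count of 50 gave 10 lower in both. All 16 libraries in 1 fit gave 2239, 26 and 181, with 4, 0, 0 and 2 in the classes. Days pooled into 4 groups gave 160 in BT474 and 1607 for the interaction, with 34 higher in both and 16 higher in HCC1806 and lower in BT474. Day 10 alone gave 1826, 27 and 282, with 7, 0, 2 and 1 in the classes and library classes of 1522, 853, 1212 and 828. Day 20 alone gave 49 in BT474 and 580 for the interaction, with 10, 1, 1 and 3 in the classes and library classes of 1524, 994, 1300 and 880. Each line fitted alone gave 0 in HCC1806 and 3659 in BT474, and hence 0 in both shared classes. The interaction cannot be had from those fits. DESeq2 gave 5712, 751 and 3238, with 131, 63, 122 and 44. The voom fit gave 0, 2139 and 1, with 0 in each class. In limma on log2 FPKM the counts were 240 in BT474 and 1786 for the interaction, with 38 higher in both, 10 lower in both and 8 lower in HCC1806 and higher in BT474.

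Leaving out 1 library at a time gave 1279 to 12543 genes called in HCC1806, 0 to 3529 in BT474 and 113 to 10830 for the interaction. The called classes held 0 to 791, 0 to 729, 0 to 999 and 0 to 630 genes, and the library classes 944 to 1901, 534 to 1709, 756 to 1983 and 457 to 1655. The highest counts all came from leaving out an HCC1806 monolayer. The numbers shared by replicates do not pair the libraries, with correlations of -0.107 to 0.0822 between groups. With the replicate block the fit called 40 genes in BT474 and 543 for the interaction, with 10, 1, 3 and 2 in the classes. The list medians of BCL2 family, cholesterol synthesis, fatty acid synthesis, glycolytic, basal, NRF2, unfolded protein, p53 and interferon genes changed sign in HCC1806 under another scaling or FPKM. At totals of 32390615 to 72489002 counts, a count of 3 stands at 0.0414 to 0.0926 CPM, and below that level no change was detectable.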
